A study of Mus musculus with 16 samples.

Results

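Autophagy is the route by which a cell encloses its own proteins and organelles in a double membrane, the autophagosome, and delivers them to the lysosome to be broken down. The ULK kinase complex starts the membrane, the class III PI3 kinase complex marks it with the lipid PI3P, 2 ubiquitin-like conjugation systems attach the Atg8 proteins (the LC3 and GABARAP proteins) to it, receptors such as p62 bring cargo to those proteins, and lysosomal proteases digest what arrives. In skeletal muscle the pathway is known for its control by FoxO factors and TFEB, and in muscle stem cells for its part in keeping resting cells intact and in supplying cells that leave rest. The 34 genes described here were chosen by gene symbol among the 24341 genes in the files. They hold 4 genes of the ULK complex, 3 of the PI3 kinase complex, 3 of membrane supply and PI3P binding, 6 of conjugation, 4 Atg4 proteases, 5 Atg8 genes, the receptor gene Sqstm1, 5 lysosome genes and 3 transcription factors.

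RNA was measured in 16 libraries of cells sorted from muscle of C57BL/6 mice, aged 2 to 3 months, that carried CD34 with alpha-7 integrin and lacked Sca-1, CD45, CD11b and CD31, a surface pattern used for muscle stem cells (satellite cells). The 6 groups were p53WT, p53KO, p53WT_3dai and p53KO_3dai (n = 3 each) and p53WT_G2 and p53KO_G2 (n = 2 each). The genotype label is p53 WT or p53 KO; the labels give no allele, no driver of the deletion, no state of the dystrophin gene, and no meaning for 3dai or G2, so the groups are named here as the labels name them. The libraries with no suffix and those of G2 came from hind limb muscles and those of 3dai from the tibialis anterior, so 3dai and muscle cannot be told apart. Whether replicates came from separate animals is not stated, and p-values then measure the spread between these libraries, which may be technical.

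Levels are in FPKM, fragments scaled by transcript length and by the library's mapped fragments. Read depth behind these values is unknown. FPKM summed to 423303 to 616485 per library, with 10240 to 11574 genes at 1 FPKM or more. Trp53, the deleted gene, stood at 6.34 to 12.2 FPKM in p53KO against 39.9 to 53.9 in p53WT, at 34.9 to 45.7 against 134 to 161 in 3dai, and at 16.7 and 19.8 against 59.9 and 71.0 in G2, so each group fell on its labelled side. Within 3dai, p53KO_3dai replicates 2 and 3 stood apart: the small RNA gene Mir6236 took 9.81% and 10.1% of their summed FPKM, against 0.277% to 2.36% in the other 14 libraries. For the 34 genes in comparisons that use p53KO_3dai, calls named below that change without them are given both ways. Here without means that p53KO_3dai is replicate 1 alone. All comparisons share 1 estimate of spread over the 16 libraries. Those 2 libraries thus also enter the SE of comparisons that do not use p53KO_3dai, which are not given both ways. Differences are in log2(FPKM + 1), first group minus second, with their SE, from 1 limma model over all 16 libraries; a gene was called at a Benjamini-Hochberg adjusted p under 0.05 over the 12954 genes that reached 1 FPKM in at least 2 libraries. All 34 genes passed that filter. The row named Atg4a lies on chromosome 3 from 103575282 to 103646068 (mm10), where the annotation has the retrogene Atg4a-ps, while Atg4a itself is on the X chromosome, so its values, 0 to 3.24 FPKM, are uncertain.

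Start-site windows were read for the lysosome and Atg8 genes because TFEB is known to bind an E-box of the letters TCACGTG in promoters of many lysosomal genes, and FoxO factors the letters GTAAACA. RefSeq windows of GRCm38.p6 (the mm10 assembly), 250 bases up to the start site, were at hand for 27 of the 34 genes. Map1lc3a and Ctsb were among the genes with no window. Searched on both strands, TCACGTG was in 3.13% of all 32851 such windows and in 4 of the 31 windows of the 27 genes. These were windows of 4 genes, Atg3, Atg7, Ctsd and Lamp1. The window of Atg7, chr6:114670846-114671095, lies inside the gene, which begins at 114643127. The shorter E-box CACGTG, which every TCACGTG contains, was in 6.02% of all windows and in those of 6 genes, the same 4 with Atg5 and Ctsl. GTAAACA was in 3.17% of all windows and in none of the 27, which says only that these letters are not in these windows. Below are Lamp1 and Ctsd, lysosome genes that stood higher in G2 than with no suffix, and Lamp2 and Gabarapl1, which stood lower in both 3dai and G2. Capitals mark TCACGTG on either strand. The first window is that of Lamp1, chr8:13158911-13159160 on the plus strand.
Lamp1: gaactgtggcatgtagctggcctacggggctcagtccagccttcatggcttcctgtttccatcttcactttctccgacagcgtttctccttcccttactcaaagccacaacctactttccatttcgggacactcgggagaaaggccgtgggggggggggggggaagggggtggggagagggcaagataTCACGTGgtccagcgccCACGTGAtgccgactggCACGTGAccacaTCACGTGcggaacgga
The window of Ctsd is chr7:142387828-142388077 on the minus strand.
Ctsd: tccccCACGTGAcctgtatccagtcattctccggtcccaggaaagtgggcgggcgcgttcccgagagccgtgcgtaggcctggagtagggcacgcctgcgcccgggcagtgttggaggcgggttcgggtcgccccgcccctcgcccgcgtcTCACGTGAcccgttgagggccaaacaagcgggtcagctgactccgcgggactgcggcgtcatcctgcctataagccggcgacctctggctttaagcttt
The window of Lamp2 is chrX:38456461-38456710 on the minus strand.
Lamp2: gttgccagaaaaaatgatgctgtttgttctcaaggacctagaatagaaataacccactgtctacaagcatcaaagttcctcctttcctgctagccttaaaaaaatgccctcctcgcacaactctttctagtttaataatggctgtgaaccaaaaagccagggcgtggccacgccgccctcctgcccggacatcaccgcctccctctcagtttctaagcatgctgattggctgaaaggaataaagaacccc
The window of Gabarapl1 is chr6:129532942-129533191 on the plus strand.
Gabarapl1: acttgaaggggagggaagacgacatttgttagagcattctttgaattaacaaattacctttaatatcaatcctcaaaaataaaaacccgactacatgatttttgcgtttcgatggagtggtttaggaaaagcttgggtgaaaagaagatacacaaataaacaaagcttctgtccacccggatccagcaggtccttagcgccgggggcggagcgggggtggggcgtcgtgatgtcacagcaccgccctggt
Lamp1 holds 4 matches in the last 62 bases before its start and Ctsd 2 places that match, while the other 2 windows hold none. A match of letters is not a site of binding.

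How do these genes differ between 3dai cells and cells with no suffix? The genes of 4 of the 5 Atg8 proteins (all but Gabarapl2), Sqstm1, Lamp2, Ctsb, Foxo1 and Ulk1 were lower in 3dai in both genotypes, while Wipi1 was higher, and the conjugation genes and Atg4 proteases were not called. In p53WT 10 of the 34 genes were called lower, 3 higher and 21 not, beside 20.9% of all tested genes called lower and 31.8% called higher. In p53KO 14 were called lower, 2 higher and 18 not, beside 22.7% and 30.4% of all genes. The median difference of the 34 was -0.23 in p53WT, against 0.23 for all genes, and -0.49 in p53KO, against 0.14. Of the genes called lower, 9 were shared, 90% of the p53WT genes and 64.3% of the p53KO genes. Together the 34 genes made up 0.588% to 0.676% of summed FPKM with no suffix, 0.207% to 0.303% in 3dai and 0.396% to 0.454% in G2. Scaled by median-of-ratios, which moves the median of all genes to -0.07 and -0.10, p53WT split as 17 lower and 2 higher, p53KO as 19 lower and 1 higher, beside 27.4% lower and 23.4% higher and 28.6% and 23.3% of all genes.

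**Figure D1:**
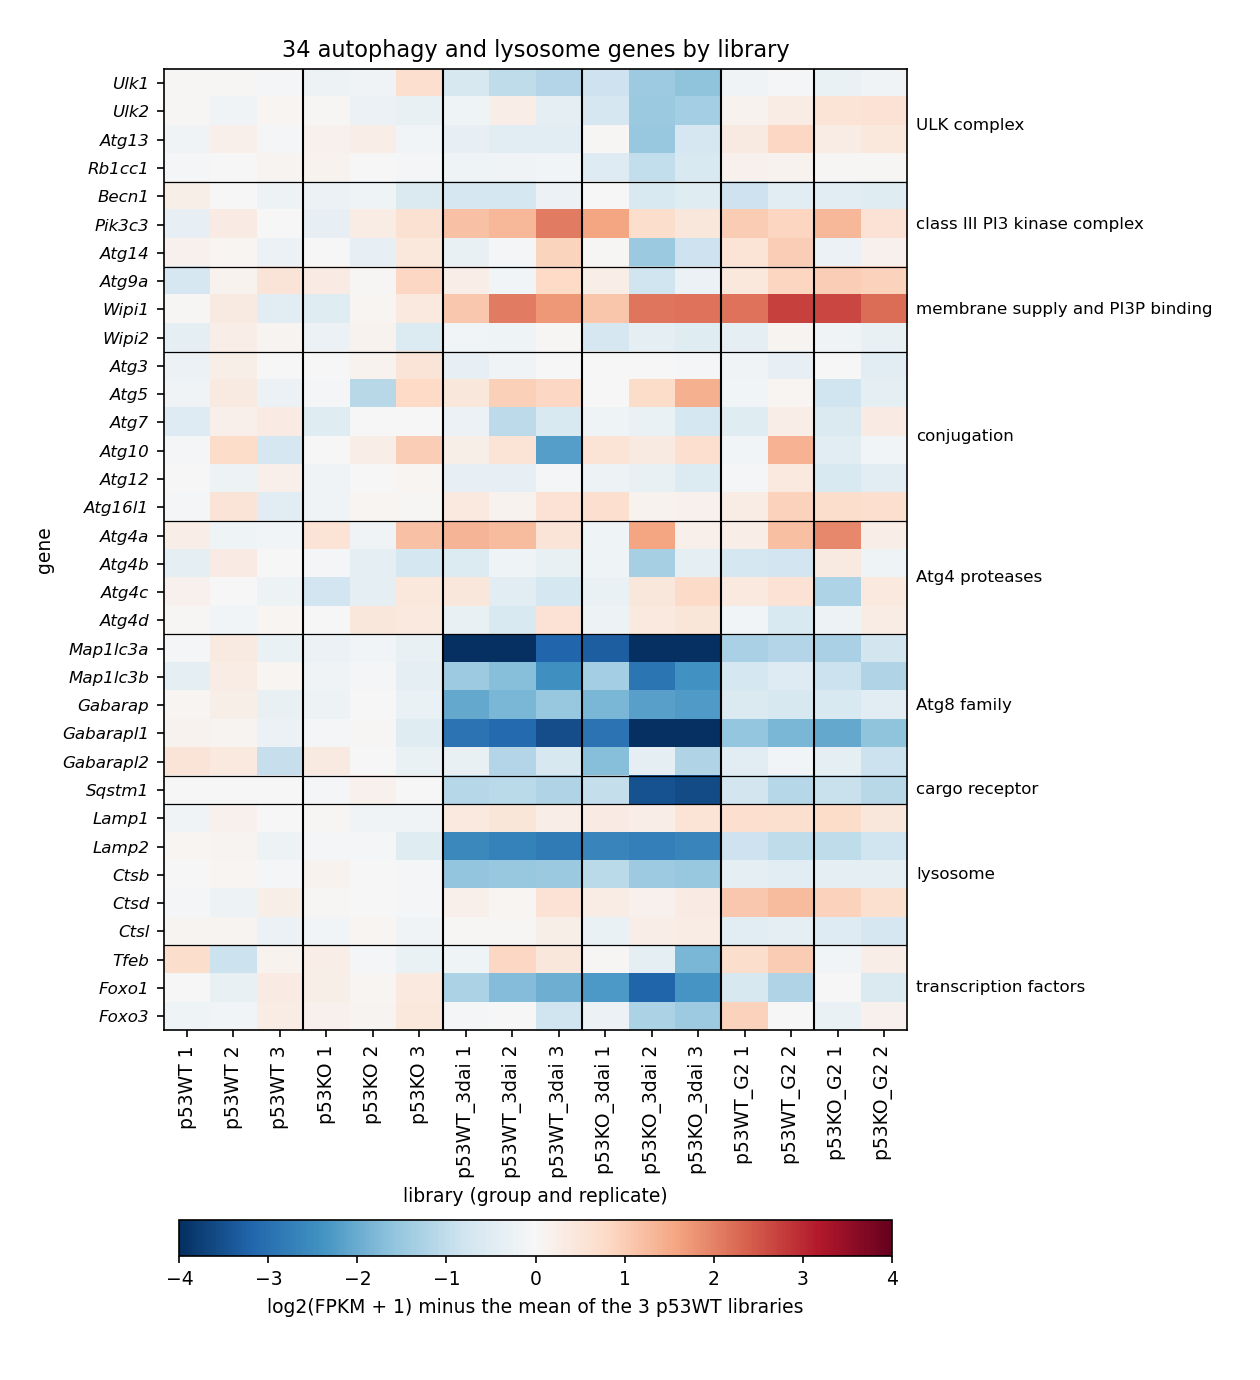
Heat map of the 34 genes (rows, by role) in the 16 libraries (columns, by group and replicate), coloured by log2(FPKM + 1) minus the mean of the 3 p53WT libraries, with the colours ending at 4 in both directions. The Atg8 genes, Sqstm1, Lamp2, Ctsb and Foxo1 are blue in all 6 libraries of 3dai, Wipi1 is red in 3dai and G2, and the rows of conjugation and of the Atg4 proteases are pale or mixed.

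Signs of other cells and of cell state moved with the same contrast. Summed over 8 pericyte markers, FPKM ran from 226 to 419 with no suffix, from 6.80 to 28.4 in 3dai, with Kcnj8 at 0 in all 6 of those, and from 116 to 361 in G2. Summed Schwann cell markers (8 genes) ran from 385 to 484, from 30.4 to 85.8 and from 171 to 185 in the same order. Tendon cell markers (8) ran from 238 to 461, from 36.0 to 85.8 and from 233 to 551, and fibro-adipogenic markers (8) from 663 to 976, from 77.7 to 125 and from 514 to 672. Scx, of the tendon list, went the other way, at 2.25 to 9.01 FPKM with no suffix and 26.0 to 70.4 in 3dai. Ngfr, of the Schwann list, stood at 2.05 to 5.19 with no suffix and 29.1 to 48.8 in p53WT_3dai. In p53KO_3dai Ngfr stood at 31.9, 4.17 and 3.21. The fibro-adipogenic sum was mostly Dcn, Col1a1 and Col3a1, with Pdgfra at 0.296 to 1.00 with no suffix. The 10 muscle stem cell markers summed to 2031 to 3041 FPKM with no suffix, 584 to 670.4 in 3dai and 951 to 1314 in G2. Of them, Calcr and Chodl were listed at 0 in 2 of the 6 3dai libraries each. Sdc4 alone stood at 1114 to 1750 with no suffix and 111 to 150 in 3dai. In both genotypes 7 of the 10 were called lower in 3dai and 1 higher. That 1 was Itga7 (alpha-7 integrin), at 81.1 to 92.3 FPKM with no suffix, 181 to 226 in 3dai and 173 to 317 in G2. Proliferation genes (10) summed to 115 to 170, 1019 to 1179 and 413 to 650.5 FPKM, and immediate early genes (10), which respond to cell isolation, to 3789 to 19003, 360.5 to 481 and 906 to 1750. The part of these in the differences below was not tested. Of 12 macrophage markers, from a cell type rich in lysosomes, the sum was 0.508 to 16.9 FPKM with no suffix, 0.559 to 9.95 in 3dai and 4.23 to 20.7 in G2, with Csf1r at 0 in all 16 libraries and Ptprc at 0.00898 or less. Endothelial markers (8) summed to 26.2 to 40.3, 0.281 to 2.79 and 13.6 to 28.0 FPKM. Pecam1 and Kdr were at 0 in all libraries of 3dai, but with no suffix they were already at or under 2.09 and 0.537. The sum with no suffix was mostly Tek (12.4 to 18.9), Esam (0.460 to 16.0) and Cdh5 (4.23 to 7.52). These are bulk libraries, in which fewer cells of a type and less RNA per cell cannot be told apart.

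The ULK complex genes, which start the autophagosome, were low to moderate in level. Ulk1, one of the 2 kinases, stood at 16.2, 16.2 and 15.1 FPKM in p53WT and at 9.78, 7.40 and 6.43 in p53WT_3dai. In p53KO it stood at 13.6, 14.4 and 25.8, and in p53KO_3dai at 8.51, 5.19 and 4.57. The 3dai libraries lay below all libraries with no suffix in both genotypes, with differences of -0.94 ± 0.27 (adjusted p = 0.00835) and -1.40 ± 0.27 (adjusted p = 0.000458; -0.94 and 0.0562 with p53KO_3dai replicate 1 alone). Ulk2, the second kinase, Atg13, which binds the kinases, and Rb1cc1 (FIP200), the scaffold, were called lower in p53KO alone of the 2 genotypes, by -1.003, -0.83 and -0.72 (adjusted p = 0.00486, 0.0391 and 0.00305), against -0.10, -0.40 and -0.15 in p53WT. With p53KO_3dai replicate 1 alone they were -0.51, -0.08 and -0.55 and none of the 3 was called (adjusted p = 0.256, 0.887 and 0.0839). The differences between those genotype responses were not called for any of the 3 (adjusted p = 0.82 for Ulk2 and for Rb1cc1). Ulk2 ran from 6.46 to 8.79 FPKM over the 6 libraries with no suffix and stood at 4.76, 2.30 and 2.59 in p53KO_3dai, with p53WT_3dai at 7.08, 10.0 and 6.04.

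Pik3c3 encodes the lipid kinase VPS34, and its level with no suffix was low. In G2 it stood at 7.54 and 6.60 FPKM in p53WT and at 9.63 and 5.31 in p53KO, and was not called. It stood at 2.33, 4.26 and 3.30 FPKM in p53WT and at 8.56, 9.59 and 16.8 in p53WT_3dai, a rise of 1.53 ± 0.37 (adjusted p = 0.00274). In p53KO it went from 2.36, 4.19 and 5.50 to 11.7, 5.84 and 4.75, groups that overlap, with a difference of 0.71 ± 0.37 that was not called (adjusted p = 0.12) but was 1.39 and called with p53KO_3dai replicate 1 alone (adjusted p = 0.0425). Becn1 (Beclin 1), the regulatory partner of that kinase, fell in p53WT by 0.54 ± 0.21 (adjusted p = 0.0398), from 55.1 to 75.3 FPKM down to 38.4 to 53.9, and had a difference of -0.03 in p53KO. Atg14, which directs the complex to the early membrane, was not called in either genotype.

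Wipi1, whose protein reads the PI3P mark on the growing membrane, had the largest rise of the 34 in both 3dai and G2. With no suffix its levels were 5.80, 7.49 and 3.98 FPKM (p53WT) and 3.69, 5.98 and 7.72 (p53KO). In 3dai they were 13.0, 27.0 and 21.0 in p53WT and 13.4, 28.1 and 28.6 in p53KO, and in G2 28.8 and 42.7 in p53WT and 41.4 and 30.0 in p53KO. Every 3dai and G2 library lay above every library with no suffix. The rises were 1.63 ± 0.35 and 1.81 ± 0.35 in 3dai (adjusted p = 0.00109 and 0.000464) and 2.45 ± 0.39 and 2.46 ± 0.39 in G2 (0.000315 and 0.000303), p53WT first. With p53KO_3dai replicate 1 alone in its group the 3dai rise was 1.13 and lost its call (adjusted p = 0.0746). Wipi2, the paralogue that recruits the conjugation machinery, had differences of -0.07 and -0.31 in 3dai and was not called, and Atg9a, the membrane protein of the vesicles that seed the autophagosome, was called only as higher in G2 than in 3dai of p53KO (1.21, adjusted p = 0.0433; 0.68 and 0.498 with p53KO_3dai replicate 1 alone).

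The conjugation genes were not called: Atg7 (the activating enzyme), Atg3 and Atg10 (conjugating enzymes), and Atg12, Atg5 and Atg16l1 (the complex that places Atg8 proteins on the membrane) gave 0 calls of 6 in every comparison. Atg3, the one that loads the Atg8 proteins, ranged from 22.8 to 45.1 FPKM over all 16 libraries and Atg12 from 13.7 to 28.7. Atg5 stood at 17.2, 25.2 and 23.0 in p53WT_3dai, above the 10.5 to 16.2 of p53WT, with a difference of 0.75 that missed the threshold (adjusted p = 0.143), and at 12.3, 21.5 and 34.7 in p53KO_3dai (0.83, adjusted p = 0.106) and Atg10 was listed at 0 in p53WT_3dai replicate 3 and at up to 11.1 elsewhere. The 4 Atg4 proteases, which trim Atg8 proteins before conjugation and free them afterwards, also gave 0 calls in every comparison. Atg4b was the highest of them, at 7.93 to 27.6 FPKM. Between genotypes in G2, Atg12 and Atg4b passed an unadjusted p under 0.05 by limma, at -0.69 and 0.82.

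The largest falls in 3dai were among the Atg8 genes. Map1lc3a (LC3A) stood at 197, 265 and 171 FPKM in p53WT and at 8.92, 9.69 and 22.0 in p53WT_3dai. In p53KO it stood at 175, 193 and 167, and in p53KO_3dai at 20.0, 9.28 and 5.84. The mean with no suffix was 15.6-fold that of 3dai in p53WT and 15.2-fold in p53KO, with differences of -3.95 ± 0.36 and -3.98 ± 0.36 (adjusted p = 3.86e-07 and 3.33e-07). Gabarapl1, a stress-responsive GABARAP gene and known FoxO target in muscle, went from 322, 315 and 252 to 37.6, 33.4 and 24.5 in p53WT, and from 282, 304 and 211 to 37.0, 6.51 and 16.2 in p53KO. Its differences were -3.19 ± 0.40 and -3.95 ± 0.40 (adjusted p = 8.56e-06 and 9.89e-07), and no 3dai library came near any with no suffix. Gabarap itself went from 319.5, 356 and 246 to 72.5, 84.4 and 105 in p53WT, a fall of 1.80 ± 0.18 (adjusted p = 1.01e-06), and from 254 to 305 down to 62.7 to 84.8 in p53KO, a fall of 1.94 ± 0.18 (adjusted p = 4.63e-07). Map1lc3b (LC3B), the form most used to follow autophagosomes, went from 56.5, 93.5 and 80.2 to 26.8, 22.6 and 12.9 in p53WT and from 67.5, 70.9 and 57.4 to 28.8, 9.14 and 13.2 in p53KO. The groups did not overlap, and the falls were 1.86 ± 0.34 and 2.02 ± 0.34 (adjusted p = 0.000273 and 0.000132). The p53KO fall of Map1lc3b was 1.15 with p53KO_3dai replicate 1 alone and kept its call (adjusted p = 0.0266). Gabarapl2 (GATE-16) was the least moved, with a fall of 1.12 ± 0.40 in p53KO (adjusted p = 0.0259) that was -1.75 and still called with p53KO_3dai replicate 1 alone (adjusted p = 0.0185) and a difference of -0.70 ± 0.40 in p53WT that was not called (adjusted p = 0.149).

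**Figure D2:**
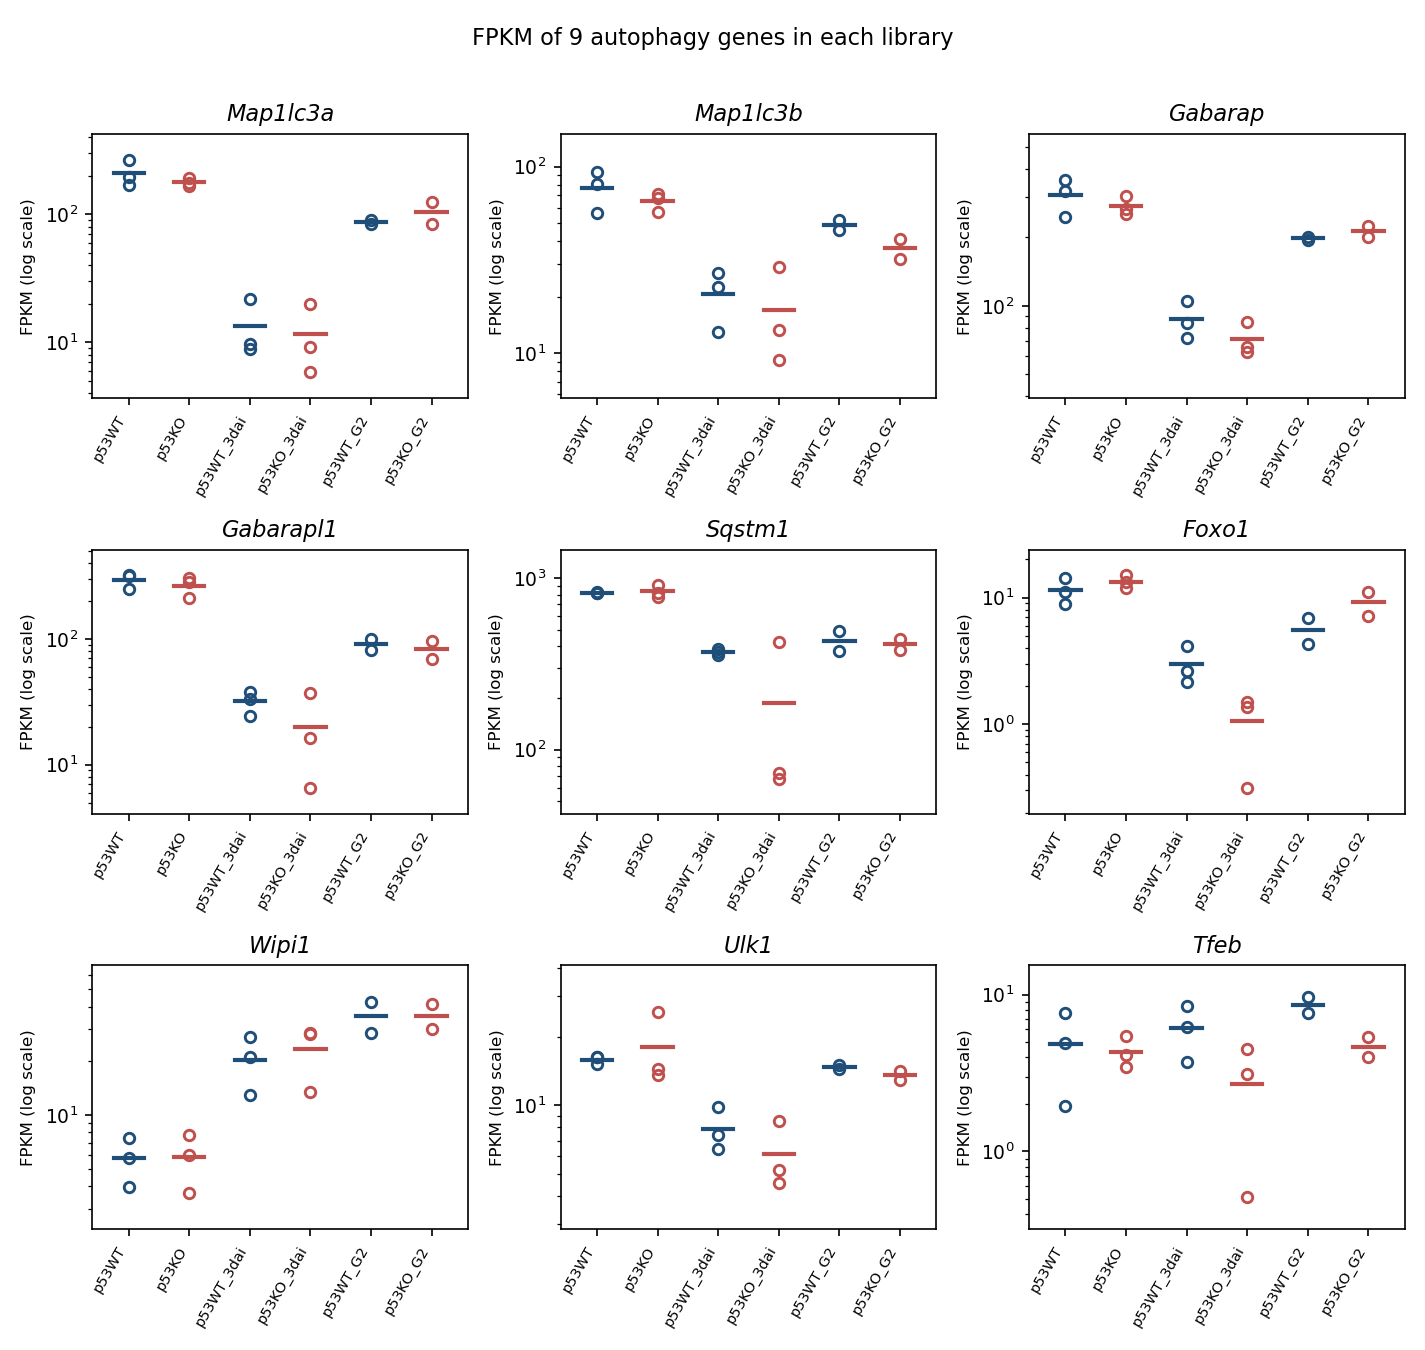
FPKM (log axis) of 9 genes in each library, by group, with p53WT in blue and p53KO in red; circles are libraries and bars group means. In 3dai the circles of Map1lc3a, Map1lc3b, Gabarap and Gabarapl1 all lie below those of the groups with no suffix, those of Wipi1 lie above, and for Sqstm1 p53KO_3dai has 1 library at 421 FPKM and 2 at 73.0 and 67.6.

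The makeup of the family differed between states along with its total, values given here with no test. Summed over the 5 genes, the family stood at 707 to 1059 FPKM with no suffix, 159 to 178 in p53WT_3dai, 107 to 177 in p53KO_3dai and 412 to 488 in G2. With no suffix Gabarap and Gabarapl1 took near-equal shares, 32.4% to 35.9% and 29.8% to 34.7%. In 3dai Gabarap took 44.5% to 61.4% and Gabarapl1 6.04% to 23.1%, and in G2 44.4% to 48.7% and 16.97% to 22.4%. Map1lc3a took 21.3% to 25.03% with no suffix, 5.47% to 12.4% in 3dai and 18.7% to 25.4% in G2. No 3dai share of Gabarap, Gabarapl1 or Map1lc3a lay within its range with no suffix; of the 4 G2 shares of Map1lc3a, 3 lay below that range and 1 above.

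**Figure D3:**
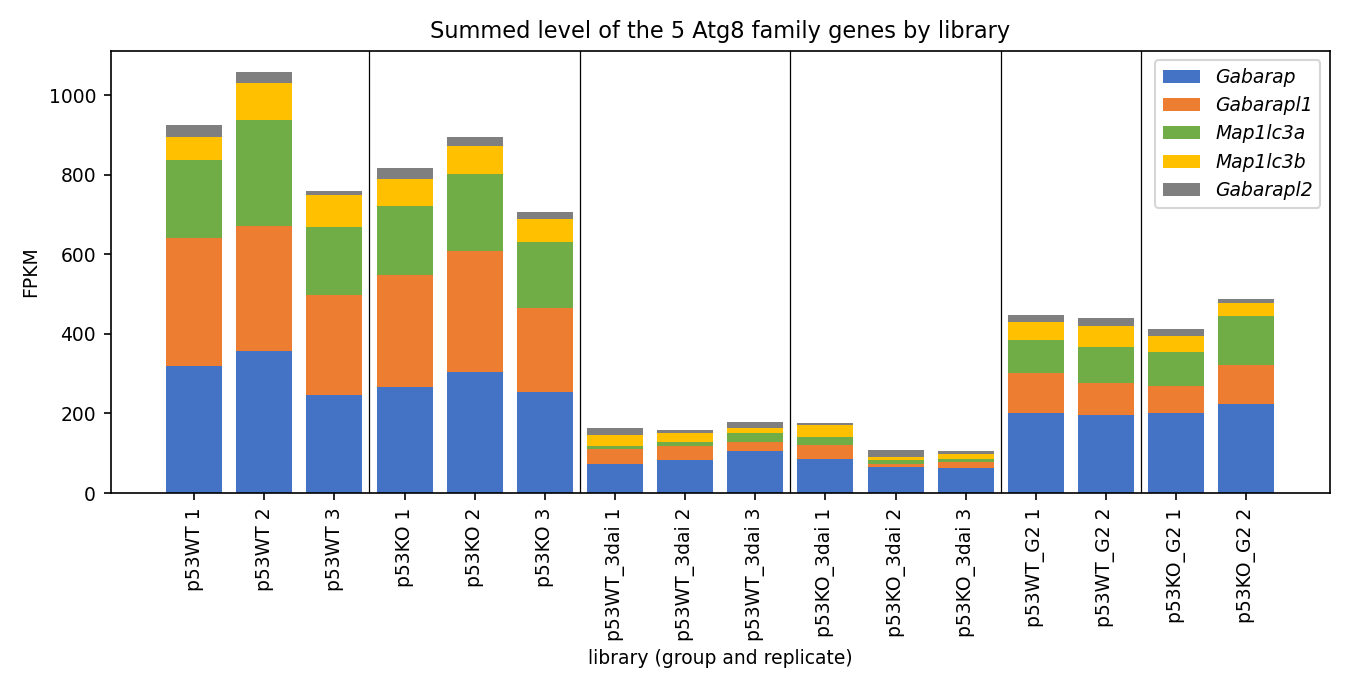
Stacked bars of the FPKM of the 5 Atg8 genes in each of the 16 libraries, grouped by vertical lines, from 0. The total is 707 to 1059 FPKM with no suffix, 107 to 178 in 3dai and 412 to 488 in G2, and the share of Gabarap (lowest segment) is larger in 3dai and G2.

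Sqstm1 (p62), the receptor that binds ubiquitin-tagged cargo to LC3 and is itself degraded with it, was the most abundant of the 34 with no suffix. It stood at 816, 828 and 817 FPKM in p53WT and at 778, 914 and 822 in p53KO. In p53WT_3dai it stood at 369, 385 and 357, and in p53KO_3dai at 421, 73.0 and 67.6. The first of those p53KO_3dai libraries lay above all p53WT_3dai libraries, and the other 2, the libraries that stood apart, lay below them. The falls from no suffix were 1.15 ± 0.46 in p53WT (adjusted p = 0.0483) and 2.70 ± 0.46 in p53KO (adjusted p = 0.00016). With p53KO_3dai replicate 1 alone the p53KO difference was -0.99 and called (adjusted p = 0.00396), smaller than that of p53WT. The p53WT call was lost in 8 of 16 alternatives (adjusted p between 0.000634 and 0.101), among them leaving out any 1 of its 6 libraries, although the groups did not overlap.

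The lysosome genes did not move as a block. Lamp2, a membrane glycoprotein that is needed for fusion with autophagosomes, stood at 342, 349 and 282 FPKM in p53WT and at 52.8, 49.0 and 44.9 in p53WT_3dai. In p53KO it stood at 307, 313 and 232, and in p53KO_3dai at 51.2, 47.4 and 51.4. All 6 3dai libraries lay within 44.9 to 52.8, and the falls were 2.70 ± 0.16 and 2.47 ± 0.16 (adjusted p = 3.97e-09 and 9.36e-09), the smallest p among the 34. Lamp1, the other abundant lysosomal membrane glycoprotein, was higher in 3dai, at 149, 160.4 and 136 against 102, 129 and 111 in p53WT and at 144, 135 and 168 against 117, 103 and 104 in p53KO. The groups did not overlap in either genotype, and the differences were 0.38 ± 0.15 and 0.45 ± 0.15 (adjusted p = 0.044 and 0.0186). By median-of-ratios they were -0.02 in p53WT (adjusted p = 0.915) and 0.12 in p53KO (adjusted p = 0.52). In all, the call was lost in 9 of 16 alternatives in p53WT, among them the replicate block and leaving out any of 4 single libraries, and in 6 of 17 in p53KO, where Lamp1 was at 0.41 with p53KO_3dai replicate 1 alone (adjusted p = 0.153). The ratio of Lamp1 to Lamp2 within a library was 0.299 to 0.448 with no suffix, 2.80 to 3.28 in 3dai and 0.844 to 1.20 in G2.

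The 3 cathepsins each had a pattern of their own. Ctsb (cathepsin B, a cysteine protease) stood at 98.5, 103 and 93.1 FPKM in p53WT and 32.0, 33.7 and 34.4 in p53WT_3dai, and in p53KO at 109, 97.7 and 93.9 with 46.4, 35.6 and 33.7 in p53KO_3dai. It fell by 1.53 ± 0.15 and 1.36 ± 0.15 (adjusted p = 7.18e-07 and 2.26e-06). Ctsl (cathepsin L, also a cysteine protease) was the most abundant of the 34 in 3dai and was not called there, with differences of 0.11 and 0.16. It stood at 444, 445 and 353 in p53WT, 429, 423 and 482 in p53WT_3dai, 380.3, 438 and 373 in p53KO and 343, 499 and 509 in p53KO_3dai, groups that overlap. Ctsd (cathepsin D, an aspartic protease) stood at 97.8, 87.3 and 118 in p53WT with 116, 106 and 149 in p53WT_3dai. In p53KO Ctsd stood at 104, 101 and 96.5 and in p53KO_3dai at 122, 113 and 127. Its differences of 0.28 and 0.26 missed the threshold (adjusted p = 0.168 and 0.199).

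**Figure D4:**
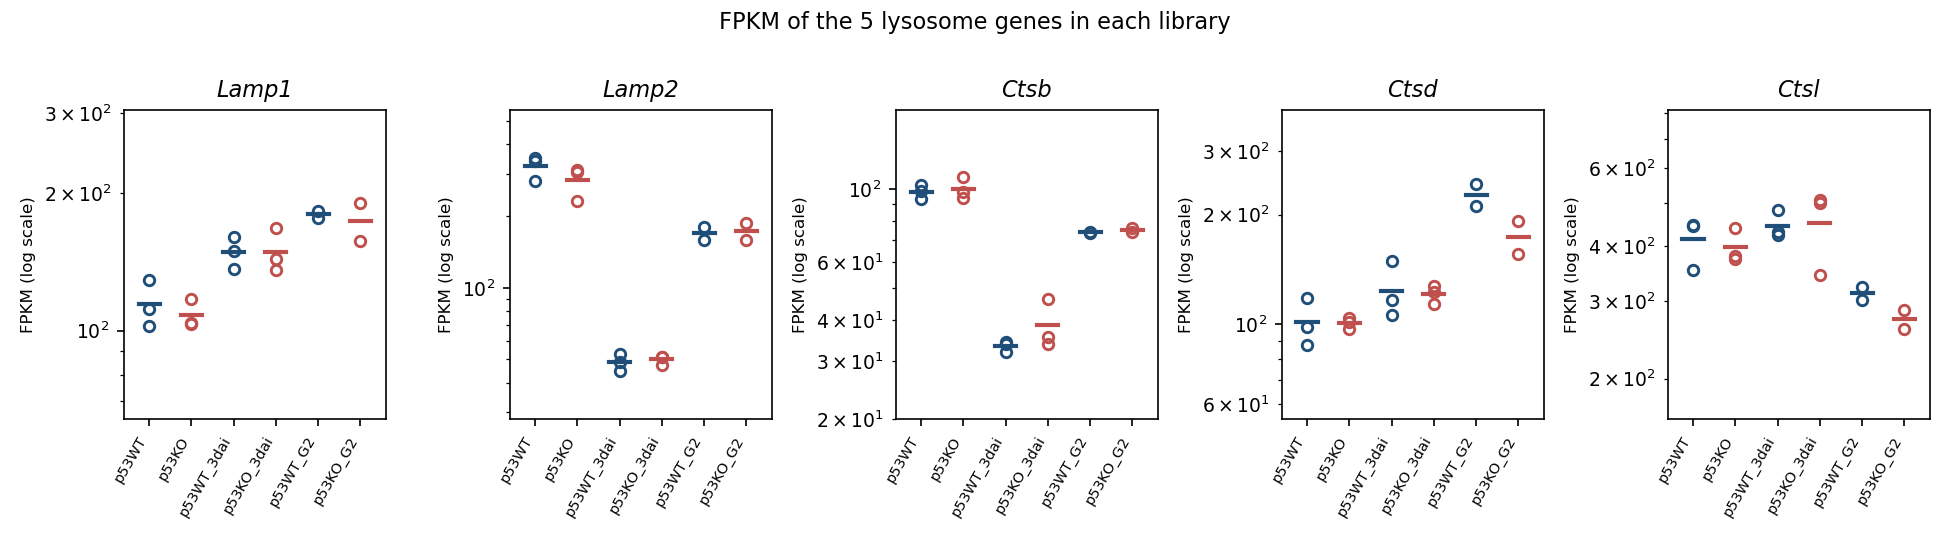
FPKM (log axis) of the 5 lysosome genes in each library, by group, with p53WT in blue and p53KO in red; circles are libraries and bars group means. Lamp2 and Ctsb are lowest in 3dai, Lamp1 is higher in 3dai and G2 than with no suffix, Ctsd is highest in G2 and Ctsl lowest in G2.

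Among the transcription factors, Foxo1, a FoxO factor that drives autophagy genes in muscle, fell in both genotypes. It stood at 11.1, 8.83 and 14.3 FPKM in p53WT and 4.11, 2.65 and 2.15 in p53WT_3dai, a fall of 1.65 ± 0.32 (adjusted p = 0.000507). In p53KO it stood at 13.2, 11.9 and 15.0 and in p53KO_3dai at 1.49, 0.313 and 1.36, a fall of 2.86 ± 0.32 (adjusted p = 2.93e-06). All 3dai libraries lay below all libraries with no suffix, and those of p53KO_3dai also below those of p53WT_3dai. Foxo3, its relative, stood at 8.94, 9.51 and 12.9 in p53WT and 10.0, 10.3 and 5.57 in p53WT_3dai, which overlap. In p53KO it went from 11.7, 11.1 and 14.3 to 8.54, 3.70 and 3.14, a fall of 1.22 ± 0.35 (adjusted p = 0.00798) that was 0.48 and not called with p53KO_3dai replicate 1 alone (adjusted p = 0.414). Tfeb, the factor of lysosomal genes, was low and variable: 7.62, 1.95 and 4.93 in p53WT, 3.74, 8.46 and 6.22 in p53WT_3dai, 5.44, 4.12 and 3.43 in p53KO, and 4.50, 3.10 and 0.509 in p53KO_3dai. In G2 it stood at 7.58 and 9.65 in p53WT and 3.98 and 5.35 in p53KO, and Foxo3 at 20.5 and 10.2 and at 8.49 and 11.8. Tfeb was not called in any of the 9 comparisons, and its 3dai groups overlap those with no suffix.

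How do these genes differ between G2 cells and cells with no suffix? Lamp1, Ctsd and Wipi1 were higher in G2 in both genotypes and Gabarapl1 and Lamp2 lower, with fewer calls than in 3dai. Of the 34, p53WT had 3 called higher and 4 lower, beside 22.1% and 5.39% of all genes; p53KO had 3 higher and 3 lower, beside 22.5% and 7.06%. The medians of the 34 were -0.06 and -0.21, against 0.33 and 0.31 for all genes. By median-of-ratios, which moves the median of all genes to 0.00 and -0.03, p53WT split as 2 higher and 11 lower, p53KO as 1 higher and 10 lower, beside 12.6% and 11.8% and 12.3% and 12.7% of all genes. Without p53KO_G2 replicate 1 the p53KO count was 1, and without p53WT_G2 replicate 1 or 2 the p53WT count was 4 and 3. Differentiating myogenic markers (9 genes) had a mean log2(FPKM + 1) of 5.83 to 7.04 in G2, 2.10 to 2.63 with no suffix and 2.94 to 4.55 in 3dai. Their summed FPKM overlapped, at 776 to 1515 in G2 and 418 to 1324 with no suffix. Myod1, one of them, went the other way, at 390 to 1270 FPKM with no suffix and 161 to 193 in G2. Mature fibre markers (10) summed to 255 to 904 FPKM in G2 against 20.0 to 92.0 with no suffix. The part of both lists was not tested.

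Ctsd in G2 stood at 211 and 243 FPKM (p53WT) and at 192 and 156 (p53KO), above all 12 other libraries. The rises over no suffix were 1.17 ± 0.19 in p53WT (adjusted p = 0.000301) and 0.78 ± 0.19 in p53KO (adjusted p = 0.00564), the second of which was 0.35 and not called by median-of-ratios (adjusted p = 0.209). Lamp1 in G2 stood at 183 and 176 (p53WT) and at 191 and 157 (p53KO), with rises of 0.66 ± 0.17 and 0.68 ± 0.17 (adjusted p = 0.0087 and 0.00701). By median-of-ratios these were 0.23 and 0.25 and were not called (adjusted p = 0.36 and 0.31). Ctsl was lowest in G2, at 302 and 322 (p53WT) and 287 and 259 (p53KO), and was called lower in p53KO alone (-0.54 ± 0.19, adjusted p = 0.0445; p53WT -0.40 ± 0.19, adjusted p = 0.135). That call was lost in 6 of 15 alternatives, with adjusted p up to 0.187, among them leaving out either p53KO_G2 library. Of the 4 genes with TCACGTG, Lamp1 and Ctsd were thus called in G2 and Atg3 and Atg7 were not.

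Lamp2 in G2 stood at 180.3 and 159 FPKM in p53WT and 158 and 186 in p53KO, below every library with no suffix and above every 3dai library. Its falls from no suffix were 0.93 ± 0.18 and 0.71 ± 0.18 (adjusted p = 0.00125 and 0.0073). Gabarapl1 stood at 100.3 and 82.1 (p53WT) and at 69.9 and 96.3 (p53KO), and fell by 1.69 ± 0.45 and 1.67 ± 0.45 (adjusted p = 0.0108 and 0.0111). Map1lc3a stood at 83.7 and 90.5 in p53WT_G2, a fall of 1.24 ± 0.41 (adjusted p = 0.0324), and at 84.3 and 124 in p53KO_G2, with -0.80 ± 0.41 not called (adjusted p = 0.156), although neither group overlapped its counterpart with no suffix. Gabarap was called lower in p53WT (-0.61 ± 0.20, adjusted p = 0.0363) and not in p53KO (-0.37 ± 0.20, adjusted p = 0.194). Sqstm1 in G2 stood at 490.1 and 373 (p53WT) and at 441 and 379 (p53KO), below every library with no suffix, with differences of -0.94 ± 0.52 and -1.03 ± 0.52 that were not called (adjusted p = 0.196 and 0.149). Map1lc3b stood at 45.5 and 51.9 and at 40.8 and 32.0, and was not called (-0.62 and -0.83, adjusted p = 0.25 and 0.114).

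**Figure D5:**
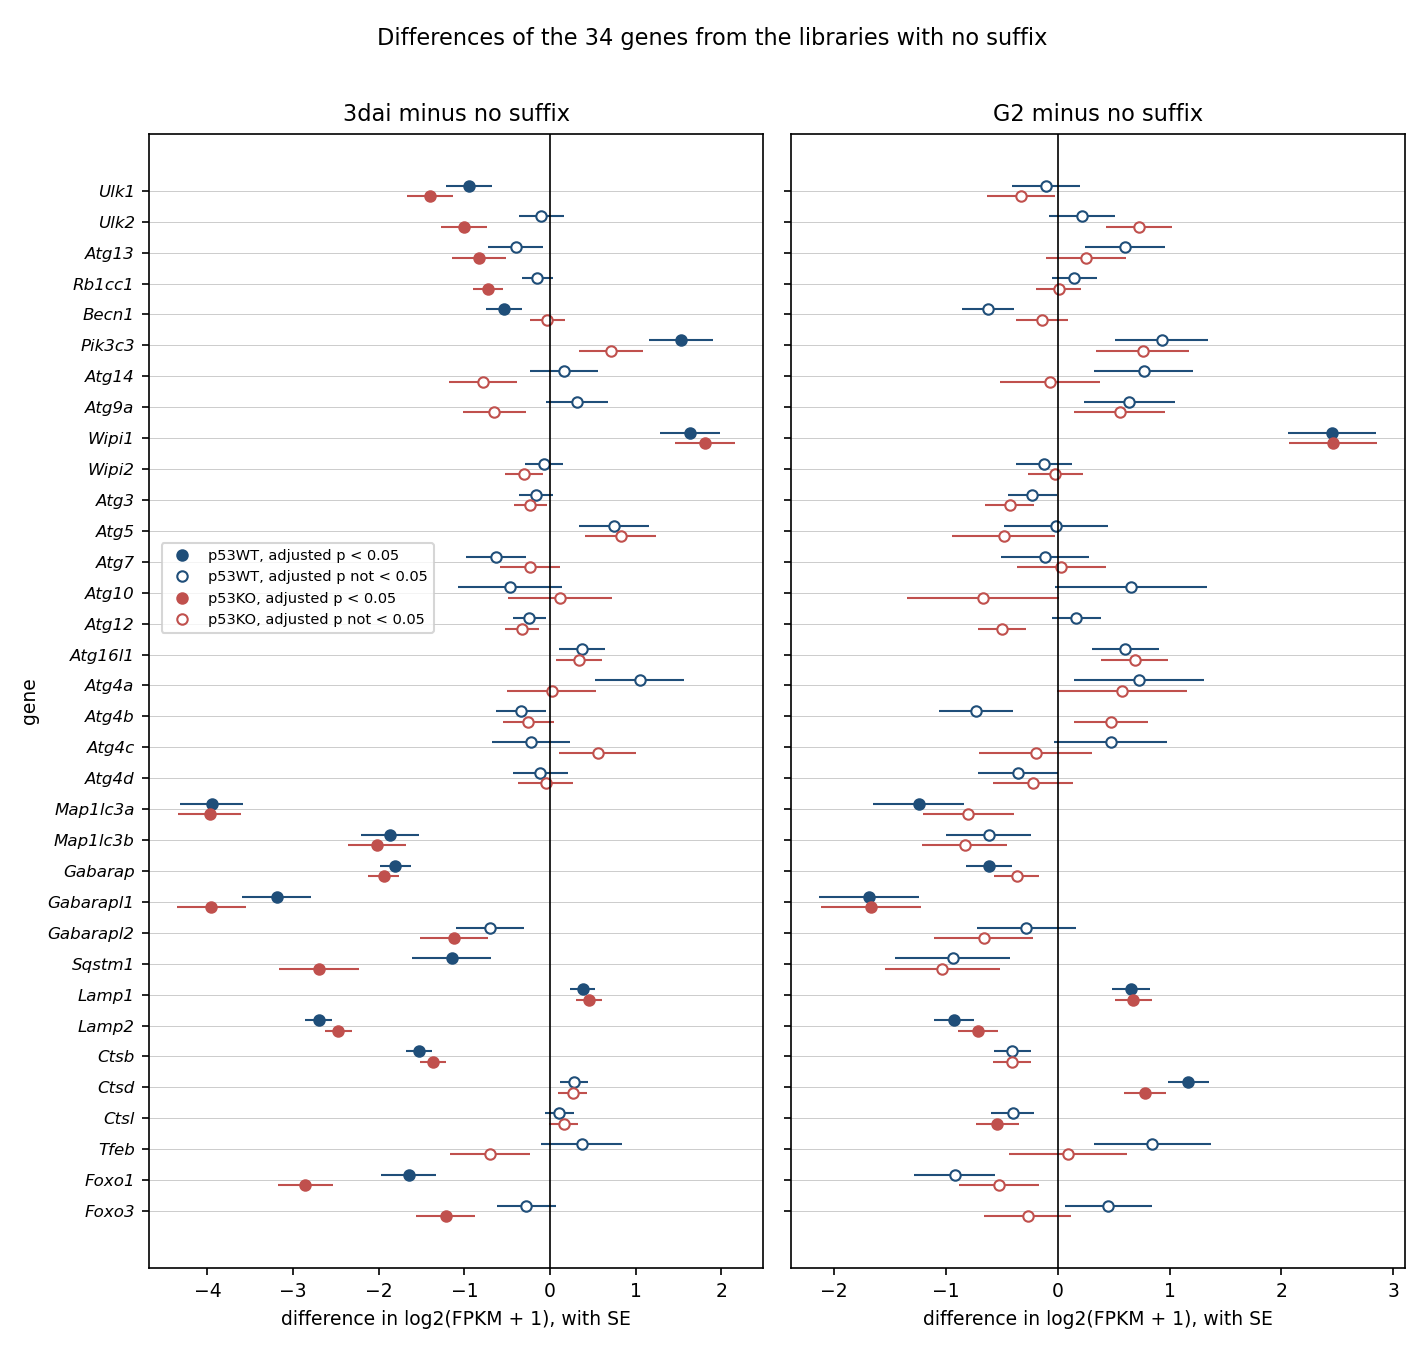
Differences in log2(FPKM + 1) of the 34 genes, 3dai minus no suffix (left) and G2 minus no suffix (right), in p53WT (blue) and p53KO (red); bars are SE and filled circles have an adjusted p under 0.05. In 3dai Map1lc3a and Gabarapl1 lie furthest to the left in both genotypes, followed by Lamp2 in p53WT and Foxo1 in p53KO. Wipi1 lies furthest to the right there in both genotypes. In G2 Ctsd, Lamp1 and Wipi1 are filled to the right in both genotypes.

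How does G2 compare with 3dai? In p53WT 7 of 34 genes were called higher in G2 and 0 lower, beside 13.9% and 6.7% of all genes, and in p53KO 13 higher and 1 lower, beside 16.1% and 7.1%. The medians of the 34 were 0.45 and 0.68, against 0.09 and 0.12 for all genes. The 6 genes higher in G2 in both genotypes were Map1lc3a (2.71 and 3.18), Lamp2 (1.77 and 1.76), Gabarapl1 (1.503 and 2.29), Gabarap (1.19 and 1.57), Map1lc3b (1.25 and 1.19) and Ctsb (1.12 and 0.96). The Map1lc3b calls were lost with the replicate block in both genotypes, in 6 of 15 and 8 of 16 alternatives in all. With p53KO_3dai replicate 1 alone the p53KO values of Map1lc3b, Gabarapl1 and Ctsb were 0.32, 1.13 and 0.68 and were not called (adjusted p = 0.68, 0.0547 and 0.0663), while Map1lc3a, Lamp2 and Gabarap kept their calls. Ctsd was higher in p53WT alone (0.88, adjusted p = 0.0036; p53KO 0.51, adjusted p = 0.0582), and Ctsl lower in p53KO alone (-0.70, adjusted p = 0.0159, or -0.33 and 0.448 with p53KO_3dai replicate 1 alone; p53WT -0.51, adjusted p = 0.0731). These differences share the 3dai and G2 libraries with those above. In p53KO the count changed with the 3dai libraries used: without p53KO_3dai replicate 2 it was 7 and without replicate 3 it was 8. Fewer libraries also widen the SE, and the part of the libraries that stood apart was not tested. Foxo1 was higher in G2 in p53KO (11.1 and 7.17 FPKM, 2.33 ± 0.36, adjusted p = 0.000384) and not called in p53WT (6.91 and 4.27 FPKM, 0.73 ± 0.36, adjusted p = 0.168). Wipi1 differed by 0.82 and 0.65 and was not called (adjusted p = 0.157 and 0.255). By group means the order 3dai, G2, no suffix from low to high held for 11 of the 34 genes in p53WT and 13 in p53KO. The share of all genes with that order is not given, so whether these counts are unusual is not known.

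Do these genes differ with p53 genotype? Autophagy genes are among the known targets of p53, and none of the 34 was called between p53KO and p53WT with no suffix, in 3dai or in G2 by limma. All genes tested gave 0.00772%, 0.0849% and 0.0695% called in these comparisons, and 0, 7 and 2 of the 34 passed an unadjusted p under 0.05, as did 3.95%, 8.89% and 4.87% of all genes. With no suffix the differences of the 34 ran from -0.38 to 0.52, with a median near that of all genes (0.00 and 0.01), and no gene had groups without overlap, beside 3.99% of all genes higher and 2.74% lower. In G2 they ran from -0.91 to 0.82, and with 2 libraries a group 5 genes were without overlap higher and 10 lower in p53KO, beside 15% and 16.1% of all genes. The genotype differences in the 3dai and the G2 response were also not called for any of the 34, beside 0% and 0.0232% of all genes, with 4 and 2 passing an unadjusted p under 0.05, as did 6% and 4.35% of all genes.

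In 3dai the differences between genotypes were wider, from -1.52 to 0.99, with a median of -0.29 against -0.02 for all genes. Of the negative differences Sqstm1 had the largest, -1.52 ± 0.46 (adjusted p = 0.304), followed by Tfeb at -1.08 ± 0.47 (adjusted p = 0.499), Ulk2 at -1.07 ± 0.26 (adjusted p = 0.244), Foxo1 at -0.98 ± 0.32 (adjusted p = 0.33) and Gabarapl1 at -0.93 ± 0.40 (adjusted p = 0.496). The 4 genes whose groups did not overlap, all lower in p53KO_3dai, were Ulk2, Rb1cc1, Wipi2 and Foxo1, beside 6.91% of all genes lower and 5.07% higher without overlap. For 10 further genes p53KO_3dai replicates 2 and 3 lay below the p53WT_3dai range while replicate 1 did not, 29.4% of the 34 beside 13.6% of all genes. They were Ulk1, Atg13, Pik3c3, Atg14, Atg9a, Gabarap, Gabarapl1, Sqstm1, Tfeb and Foxo3, a count made after the values were seen. Replicate 1 was the one that decided the call for Sqstm1: without it the genotype difference was -2.38 (adjusted p = 4.33e-06) and with it alone 0.19 (adjusted p = 1). Gabarapl1 went from -1.51 (adjusted p = 0.0113) without that library to 0.23 with it alone. Weighting libraries by their spread gave 6 genes lower in p53KO_3dai, Ulk2, Rb1cc1, Gabarapl1, Sqstm1, Foxo1 and Foxo3. The share of all genes called with those weights is not given, so whether 6 is unusual is not known. For Lamp1, Lamp2, Ctsd and Ctsl the genotype differences in 3dai lay between -0.02 and 0.04, with SE of 0.15 to 0.17, and the groups overlap. For Ctsl p53KO_3dai replicates 2 and 3 lay above the p53WT_3dai range, at 499 and 509 FPKM, and replicate 1 below it, at 343.

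Further genes of the pathway were taken from lists by function. In 3dai against no suffix, other autophagy machinery had, p53WT first, 7 of 30 genes higher and 6 lower and 5 and 5, autophagy receptors 2 and 6 of 17 and 2 and 8, lysosomal hydrolases 8 and 13 of 39 and 3 and 13, lysosomal membrane and transport proteins 4 and 5 of 22 and 4 and 5, and V-ATPase subunits, which acidify the lysosome, 5 and 4 of 17 and 4 and 3. Of all genes tested, 31.8% were called higher and 20.9% lower in 3dai of p53WT, and 30.4% and 22.7% in p53KO. The p53KO counts include the p53KO_3dai libraries that stood apart and are not given both ways. The median differences of these lists in p53WT ran from -0.44 (hydrolases) to 0.40 (V-ATPase), against 0.23 for all genes. In G2 against no suffix the lists had more calls higher than lower, as did all genes, with hydrolases at 8 higher and 0 lower (p53WT) or 9 and 1 (p53KO), and V-ATPase subunits at 5 and 0 and at 3 and 0, beside the 22.1% and 22.5% of all genes called higher and 5.39% and 7.06% lower. No gene of these lists was called between genotypes.

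Among the machinery, Trp53inp2 (DOR), which binds Atg8 proteins, stood at 29.5, 43.4 and 29.8 FPKM in p53WT, 4.35, 5.56 and 4.58 in p53WT_3dai and 41.9 and 36.0 in p53WT_G2. It fell in 3dai by 2.58 (adjusted p = 2.93e-07) and by 2.76 in p53KO (adjusted p = 1.32e-07), and was not called in G2 (0.20 and -0.04). Vamp8, a SNARE of autophagosome and lysosome fusion, rose in 3dai by 2.06 and 1.11 (adjusted p = 0.000224 and 0.0179) and in G2 by 1.85 and 1.73 (adjusted p = 0.00351 and 0.0052), from 7.32 to 23.7 FPKM in p53WT to 41.7 to 88.1 in p53WT_3dai. Pink1, the kinase that marks damaged mitochondria for autophagy, stood at 62.3, 58.0 and 58.7 FPKM in p53WT and 3.76, 3.12 and 9.94 in p53WT_3dai, with falls of 3.34 and 4.39 (adjusted p = 2.5e-06 and 1.54e-07). Phb2, a mitochondrial inner membrane protein and receptor, moved the other way, from 57.8 to 67.1 up to 289 to 304 FPKM in p53WT, with rises of 2.21 and 2.42 (adjusted p = 1.04e-08 and 4.36e-09). Of the rest named by the same rule, Vps33a, of the fusion complex HOPS, rose in 3dai by 1.26 and 1.45, Dram1, a p53-induced lysosomal membrane protein, fell by 1.76 and 1.81, and Ccpg1, a receptor for the endoplasmic reticulum, fell by 1.61 and 1.49. Bnip3, a mitochondrial receptor, rose in 3dai of p53WT by 1.33 (adjusted p = 0.0327), with overlap at 2.88 FPKM, and had a difference of 0.06 in p53KO (adjusted p = 0.932).

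Within the hydrolases, Gusb (beta-glucuronidase) rose from 2.36, 2.64 and 2.59 to 37.2, 27.3 and 23.9 FPKM in p53WT_3dai and to 13.0 and 18.6 in p53WT_G2, by 3.09 and 2.23 (adjusted p = 5.89e-07 and 0.000166). Ctsk (cathepsin K, abundant in bone-resorbing and connective tissue cells) stood at 6.30, 6.22 and 10.2 in p53WT and 0.0558, 0.790 and 0 in p53WT_3dai (-2.76, adjusted p = 0.000668), and Ctso (cathepsin O) at 8.02 to 10.5 and 0.365 to 1.63 (-2.54, adjusted p = 1.64e-05). Glb1 (beta-galactosidase) rose by 1.70 and 1.54 in 3dai and by 1.64 and 1.75 in G2, p53WT first, and was called in all 4. Of the membrane and transport genes, Tmem192 and Npc2, which carries cholesterol out of the lysosome, rose in 3dai by 2.63 and 0.87 in p53WT and by 2.12 and 0.78 in p53KO, and Sort1 (sortilin), a sorting receptor, fell by 1.39 and 1.24. Igf2r, the receptor that carries new hydrolases to the lysosome, fell in 3dai from 22.3 to 36.9 down to 6.36 to 9.88 FPKM in p53WT (-1.69, adjusted p = 3.16e-05) and was not called in G2 (0.54, adjusted p = 0.151). Atp6v1d and Atp6v0a2, V-ATPase subunits, rose in 3dai by 1.79 and 1.59 (adjusted p = 0.000117 and 0.000174), while Atp6v0e2 and Atp6v0a1 fell by 1.57 and 1.23 (adjusted p = 0.0279 and 0.00552), all in p53WT.

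The upstream regulators held 12 of 27 genes higher and 3 lower in 3dai of p53WT, with 11 and 6 for p53KO, among mTORC1, TSC and AMPK genes. Of all genes, 31.8% were called higher and 20.9% lower there in p53WT, and 30.4% and 22.7% in p53KO. Prkab2, an AMPK regulatory subunit, fell from 52.8, 40.3 and 52.2 to 4.04, 3.54 and 7.36 FPKM in p53WT, by 3.09 (adjusted p = 2.89e-06), and in p53KO by 2.66 (adjusted p = 1.29e-05). Deptor, an inhibitor of mTOR, fell by 1.51 and 1.69 (adjusted p = 0.000174 and 5.96e-05), and Tbc1d7, a subunit of the TSC complex, rose by 3.51 and 3.02 (adjusted p = 1.5e-05 and 6.17e-05), from 0, 0 and 0.446 to 10.1, 8.87 and 18.6 FPKM in p53WT. Akt1s1 (PRAS40), which binds mTORC1, rose by 1.82 and 1.68 (adjusted p = 3.92e-06 and 8.45e-06). Fbxo32 (atrogin-1), a FoxO-driven ubiquitin ligase of muscle wasting, rose in p53WT_3dai from 1.44, 2.87 and 3.33 to 13.1, 11.5 and 15.6 FPKM (2.05, adjusted p = 0.000727), a group in which Foxo1 fell. Usf1, an E-box factor, rose there by 2.24 (adjusted p = 0.0011) and was not called in p53KO_3dai (0.56, adjusted p = 0.352). In p53KO_3dai replicate 1 Usf1 stood at 28.1 FPKM, above every p53WT_3dai library. It stood at 8.12 and 7.54 in replicates 2 and 3, the libraries that stood apart. Fbxo32 and Usf1 belong to the list of MiT and FoxO factors and atrophy ligases. It had 4 of 9 genes higher and 0 lower for p53WT, then 0 and 1 for p53KO, beside the same shares of all genes. The p53KO counts of this list and of the upstream regulators include the libraries that stood apart and are not given both ways. In p53KO_3dai Fbxo32 stood at 8.08, 2.58 and 1.48 and was not called (0.53, adjusted p = 0.304). The part of the libraries that stood apart in the p53KO results of Usf1, Fbxo32 and their list was not tested.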

How the data were processed

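The authors deposited 1 table of FPKM values per library, with a Cufflinks style status column. The submitters' processing notes name STAR, Cufflinks, Cuffdiff and the build mm10, and give no versions. Total RNA was made into libraries with a directional kit, per the labels' protocols. FPKM are not counts, so depth is unknown and no interval or limit from read numbers could be given. Genes at 1 FPKM or more in at least 2 of 16 libraries were kept, 12954 of 24341. Values as log2(FPKM + 1), a scale that understates the change of low genes, were fitted in limma 3.58.1 (R 4.3.3) with 1 mean per group and a variance trend, and p-values were adjusted by Benjamini-Hochberg over all genes kept. The procedure was tested on simulated data first. The 34 genes, the other lists and the tests were chosen with earlier results of these data known. Values of every library are given for 8 fixed genes and for the 3 largest called rises and falls among the 34 in each comparison with a mean of 5 FPKM or more, and the pathway lists are named by their 2 largest called rises and falls in 3dai minus no suffix of p53WT; other genes named with their values were chosen after these were seen. Alternatives changed the pseudocount to 0.1, the filter, the scaling, the weights, the libraries fitted and a replicate block. Sequences are from RefSeq, GRCm38.p6. Figures were drawn with matplotlib 3.10.9.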

Additional observations from a re-analysis of the deposited data

How the results depend on the processing

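Single results were followed through all alternatives only for the fixed genes and those with the largest called rises and falls. Of 42 such results that were called, 22 kept their call under all alternatives run and 20 lost it under 1 or more. Among the 22 were Lamp2, Map1lc3a, Map1lc3b, Gabarapl1 and Foxo1 in 3dai minus no suffix of both genotypes. The cause of the losses was not tested. Calls for Ulk1, Ulk2, Atg13, Rb1cc1, Becn1, Atg9a, Gabarap, Gabarapl2 and Ctsb are not among the 42. The number of the 34 genes called in G2 minus no suffix of p53WT was 7, and 11 with quantile normalization, 13 with median-of-ratios scaling and 11 with array weights; in p53KO it was 6, and 12 with quantile normalization and 11 with median-of-ratios scaling. Between p53KO_3dai and p53WT_3dai it was 0, and 6 with array weights. In G2 minus 3dai of p53KO it was 14, and 5 with only the groups compared and 4 with p53KO_3dai replicate 1 alone; in 3dai minus no suffix of p53KO it was 16, and 10 with that library alone. Leaving out 1 library at a time gave 10 to 12 and 13 to 17 in 3dai minus no suffix (p53WT first), 3 to 7 and 1 to 6 in G2 minus no suffix, 4 to 7 and 7 to 16 in G2 minus 3dai, 0 to 3 between genotypes in 3dai and 0 to 1 for the genotype difference in the 3dai response. That 1 was Sqstm1, at -2.41 (adjusted p = 0.000175) without p53KO_3dai replicate 1. Of the 54 single results followed, called or not, 5 reversed. Lamp1 in 3dai minus no suffix of p53WT did so under median-of-ratios scaling, at -0.0238. The other 4 did so with p53KO_3dai replicate 1 alone. They were Sqstm1 and Gabarapl1 between genotypes in 3dai, at 0.19 and 0.23, and Sqstm1 in G2 minus 3dai of p53KO, at -0.0436. The last was Sqstm1 in the genotype difference of the 3dai response, at 0.16. With quantile normalization 3dai minus no suffix split as 2 higher and 13 lower (p53WT) and 1 and 17 (p53KO). Replicate numbers did not pair the libraries: deviations of same-numbered libraries correlated with a median r near 0 (range -0.159 to 0.127 over 36 pairs of libraries). With a replicate block the counts were 11 and 15 in 3dai minus no suffix, 7 and 5 in G2 minus no suffix, 6 and 13 in G2 minus 3dai and 0 between genotypes.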

Other observations

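The windows upstream of start sites were also set beside the differences for the wider set of lysosomal genes, those among the 34 and those of the hydrolase, membrane and V-ATPase lists, a split chosen after the values were seen and given with no test. Of these genes 17 hold TCACGTG, 46 have a window without it and 20 have no window. In G2 minus no suffix of p53WT, 5 of the 17 were called higher and 0 lower, with a median log2 difference of 0.54, and 8 of the 46 higher and 1 lower, with a median of 0.44. In p53KO the counts were 4 and 0 of 17 (median 0.40) and 8 and 3 of 46 (median 0.17). In 3dai minus no suffix of p53WT they were 2 and 3 of 17 (median -0.23) and 11 and 16 of 46 (median -0.14), and in p53KO, with the medians in the other order, 2 and 3 of 17 (median -0.16) and 7 and 15 of 46 (median -0.35).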
